A study of Ovis aries with 6 samples.

Results

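The early response genes EGR1, FOS and MYC, and the JUN family whose proteins pair with FOS, were measured probe by probe on expression arrays of cultured sheep (Ovis aries) cells of 2 kinds. Members were the probes whose gene name or description names EGR1, FOS or MYC, or whose gene name is FOSB, FOSL1, FOSL2, JUN, JUNB, JUND or ATF3. The rule found 17 probes among 15008, of which 15 belonged to 6 early response genes (6 probes for EGR1, 4 for FOS, 2 for MYC and 1 each for JUN, JUNB and JUND). The other 2 probes only carry MYC inside the name of another gene and are described apart. In all, 904 genes could be given a symbol, on 1454 probes. No probe was named for FOSB, FOSL1, FOSL2 or ATF3.

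The cells were corneal epithelial cells, from the surface of the eye, and epidermal stem cells of the skin, hereafter corneal and epidermal. There were 3 samples of each kind, named as cell lines in the design text. No genotype, animal, age or passage is given in the sources used here. The p-values set each difference against the variation among these samples, which may be in part technical. Arrays of a kind correlated at 0.992 to 0.993, and arrays of different kinds at 0.975 to 0.979. Whether the 3 samples of a kind cover variation between animals is not known. Cells of all samples were handled alike per the labels' protocols: adherent cells were detached with trypsin, the trypsin was stopped with fetal calf serum, and the pelleted cells went into RNA extraction. RNA of each sample was labelled with Cy3 and hybridised to 1 single-colour Agilent array. Values are normalized log2 intensities, that is, the log2 processed signal minus the 75th percentile of its array, so 0 stands for that percentile. A change is the corneal minus the epidermal mean, and a probe was called when its adjusted p (limma, Benjamini-Hochberg over 11742 tested probes) was under 0.05.

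Early response genes are transcribed at a low level in resting cells and are induced quickly, without new protein synthesis, when growth factors, serum, stress or injury activate the Ras and MAP kinase pathway. EGR1 is a zinc finger transcription factor, FOS and the JUN proteins form the dimeric factor AP-1, and MYC, with its partner MAX, drives genes of growth and metabolism. In skin and cornea, members of all of these families are known from wound edges and from growing epithelial cells.

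Between 72.9% and 75.9% of 15208 gene spots were well above background on the corneal arrays, against 77.5% to 81.6% on the epidermal arrays. The mean share was 74.1% ± 1.56 on corneal arrays and 80.2% ± 2.36 on epidermal arrays (SD, n = 3 each), a difference with p = 0.1 by an exact permutation test (two-sided), which cannot go lower with 3 arrays a kind. Saturation was seen on no spot, and precision is limited by how few arrays there are. A single slide and scan held the 6 arrays, the corneal ones in slide row 2 and the epidermal ones in slide row 1; effects of the row and of the cell type cannot be told apart. Of 8 keratinocyte markers with a probe, KRT19 and TP63 were well above background on 0 arrays. KRT14, the keratin of basal epidermis, was above it on 0 corneal and 2 epidermal arrays, and KRT15 on 1 corneal and 3 epidermal arrays. The lowest signal well above background was -6.57, -6.12 and -6.26 on the corneal arrays, against -7.13, -6.65 and -7.14 on the epidermal ones. Such counts are therefore not alike between the kinds, and KRT14 averaged -6.64 in corneal and -6.60 in epidermal samples. The mesenchymal filament gene VIM had a value of 8.60 ± 0.02 in corneal and 8.66 ± 0.12 in epidermal cells (SD, n = 3 each). These 4 markers of basal epidermis were thus at or near background in both kinds. DSP, a further marker of the list, was also near it, being well above background on 1 corneal and 3 epidermal arrays. ITGB1, JUP and PPL, which epithelia share with more cell types, were detected on all 6 arrays. The integrin gene ITGB1 averaged 2.36 in corneal and 2.22 in epidermal samples, the junction gene JUP 0.06 in corneal and -0.37 in epidermal samples, and the plakin gene PPL 3.55 in corneal and 4.10 in epidermal samples. PAX6, a factor of the eye and its surface epithelium, was detected on all 6 arrays. By its brightest probe it was higher in corneal cells by 0.30 ± 0.07 (SE, adjusted p = 0.0132). This direction turned with normexp background correction (-0.26, adjusted p = 0.721). With 7 spots of extreme local background left out as well, it was called higher (0.27, adjusted p = 0.00381). The call was lost with no scaling (0.13, adjusted p = 0.236). Another PAX6 probe, A_70_P031657, was also called higher (0.36 ± 0.06, SE, adjusted p = 0.00398). ALDH1A1, an aldehyde dehydrogenase and the other listed marker of corneal epithelium with a probe, was lower in corneal cells (-4.84 ± 0.05, SE; adjusted p = 1.71e-07). The summed linear signal of PAX6 and ALDH1A1 was 0.285 to 0.317 on corneal and 3.21 to 3.33 on epidermal arrays, where it was mostly that of ALDH1A1. The corneal keratins KRT3 and KRT12 were not analysed here. The summed linear signal of 9 mesenchymal markers, relative to the 75th percentile, was 938 to 959.9 on corneal and 976.3 to 1204 on epidermal arrays. That of the 8 keratinocyte markers was 17.9 to 18.1 on corneal and 22.2 to 22.8 on epidermal arrays. Most of the keratinocyte sum came from 1 gene, PPL, which was called lower in corneal cells, while ITGB1 and JUP were called higher. The sum therefore does not give the direction of the list as a whole. Of the 9 mesenchymal markers, 1 was called higher and 5 lower in corneal cells. Their sum came mostly from VIM and DCN, neither called by its brightest probe, and hides large differences of single genes. COL3A1 changed by -4.51, and POSTN, at background on all corneal arrays, had a bound of 59.9-fold lower. FN1, the 1 called higher, changed by 0.95. Of 5 keratinocyte markers bright enough to test, 2 were higher and 1 lower. Among all tested genes with a symbol, 27.3% were called higher and 35.5% lower. The part of cell makeup in the values below was not tested. In bulk samples, fewer cells of a type and less RNA per cell cannot be told apart.

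EGR1, FOS, MYC and JUNB were lower in corneal than in epidermal cells by the brightest probe of each, and JUND was higher. JUN was called lower by its 1 member probe, but not by the brightest of all probes matched to JUN. EGR1 differed most, with its brightest probe 3.89-fold lower in corneal cells. The brightest FOS probe was 1.98-fold lower, the MYC probes were 1.43-fold and 1.50-fold lower, and JUNB was 1.40-fold lower. All 15 probes were bright enough to test, and 13 were called lower, 1 higher and 1 not at all. FOS A_70_P016317, called lower, and FOS A_70_P001561, not called, were well above background on 3 epidermal but 0 corneal arrays. For these FOS probes only a bound of the change is known. When detection on all 6 arrays was required, they and EGR1 A_70_P023511 were not tested. In that fit 11 member probes were called lower and 1 higher. Across all tested probes, 33.4% were called lower and 26.4% higher, 59.8% in all, so a call by itself was common in this comparison. Of all calls, 44.1% were higher in corneal cells, a share that was 22.4% with no scaling between arrays. The groups did not overlap for 14 of the 15 probes, in 13 with the corneal arrays below the epidermal ones, whereas over all tested probes 67.8% did not overlap, 37.7% with the corneal arrays below and 30.1% with them above. Of the EGR1 probes, 5 were called and at least 2-fold lower, a size that 4.29% of tested probes reached, while 3.46% were called and at least 2-fold higher. The median change of the 15 probes was -0.59, against -0.05 over all tested probes, whose middle 50% ran from -0.29 to 0.19. These counts and this median take every probe singly, although an EGR1 pair and a FOS pair each share 59 bases. Probes of 1 gene on the same arrays are not independent.

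**Figure D1:**
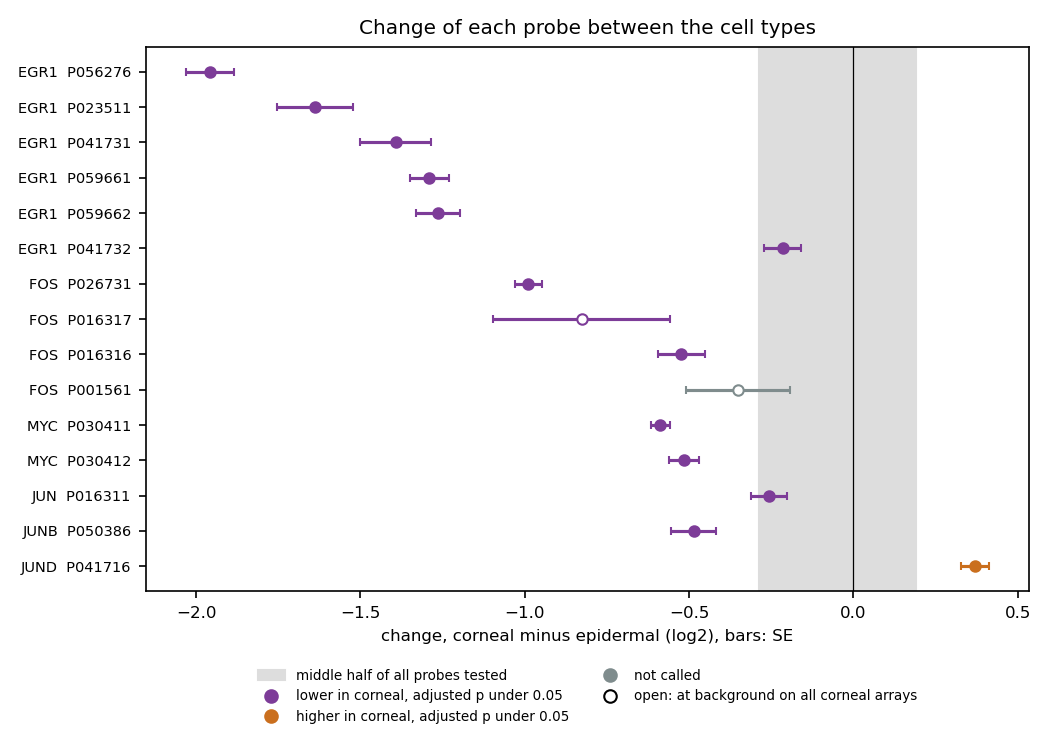
Change of each probe (corneal minus epidermal, log2 scale, horizontal axis) with its standard error, by gene; the grey band runs from the lower to the upper quartile of all tested probes, -0.29 to 0.19, and open points were at background on all corneal arrays. Of the EGR1 probes, 5 lie between -1.96 and -1.26 and the EGR1 probe A_70_P041732 lies at -0.21, inside the band, while JUND at 0.37 is the 1 probe on the higher side.

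EGR1 was, by the brightest probe of each gene, the member with the widest gap between the cell types. Its brightest probe, A_70_P056276, read 0.81, 0.95 and 0.90 on the corneal arrays, against 2.72, 2.96 and 2.84 on the epidermal arrays. In linear processed signal, before any scaling between arrays, that was 1580, 1744 and 1657 units in corneal and 7252, 7482 and 6984 units in epidermal samples. Every corneal array was far below every epidermal array, and the 3 arrays of a kind lay close together. The change was -1.96 ± 0.07 (SE; adjusted p = 9.47e-06), and 1.69% of all tested probes fell further.

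Probes A_70_P059661 and A_70_P059662 share 59 of their 60 bases, 1 base apart, and so count as 1 measurement of the EGR1 transcript. A_70_P059661 read -0.15, -0.23 and -0.18 in corneal and 0.99, 1.20 and 1.13 in epidermal samples. A_70_P059662 read -0.20, -0.23 and -0.14 in corneal and 0.95, 1.19 and 1.08 in epidermal samples. The groups were again well apart, and the near-identical probes gave changes of -1.29 ± 0.06 (SE; adjusted p = 2.30e-05) and -1.26 ± 0.07 (SE; adjusted p = 3.57e-05).

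The other EGR1 probes were dimmer. A_70_P023511 read -5.72, -6.10 and -5.74 in corneal and -4.28, -4.12 and -4.25 in epidermal samples, a change of -1.64 ± 0.11 (SE; adjusted p = 0.000105). It was well above background on 2 of 3 corneal arrays. A_70_P041731 read -5.87, -5.78 and -5.49 in corneal and -4.41, -4.34 and -4.22 in epidermal samples, a change of -1.39 ± 0.11 (SE; adjusted p = 0.00016). Both probes separated the cell types with no overlap. Their size depended on the background correction: with normexp correction run without 7 spots whose local background was extreme, the changes were -0.37 and -0.26, still called, against -1.87, -1.23 and -1.20 for the 3 brighter probes.

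A_70_P041732 stood apart from the other EGR1 probes. It read -2.97, -3.02 and -3.02 in corneal and -2.89, -2.69 and -2.79 in epidermal samples, a change of -0.21 ± 0.06 (SE; adjusted p = 0.0194), or 1.16-fold lower. The groups did not overlap, but corneal replicate 1 and epidermal replicate 1 nearly met. This call was lost when corneal replicate 2 (-0.21, adjusted p = 0.0593), corneal replicate 3 (-0.21, adjusted p = 0.0583) or epidermal replicate 3 (-0.21, adjusted p = 0.0573) was left out. The probe shares 22 bases with A_70_P041731, and the pair is printed here because neighbouring stretches annotated to 1 gene gave changes of different size; capitals mark the bases that the pair shares.
EGR1 A_70_P041731: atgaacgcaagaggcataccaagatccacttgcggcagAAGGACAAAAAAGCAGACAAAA
EGR1 A_70_P041732: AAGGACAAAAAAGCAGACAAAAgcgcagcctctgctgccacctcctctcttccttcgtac
The first sequence runs into the second after 38 bases. Within each array, the signal of A_70_P041731 minus that of A_70_P041732 was -2.71 ± 0.21 in corneal and -1.53 ± 0.11 in epidermal samples (log2, SD, n = 3 each), a change of -1.18 between the kinds. This difference within an array does not depend on how the arrays are scaled, but it does on the background correction, being -0.48 with normexp correction and -0.17 with the extreme spots left out as well. The pair was chosen after its values were seen, so it carries no test. Which of the pair follows the EGR1 transcript more closely was not tested.

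**Figure D2:**
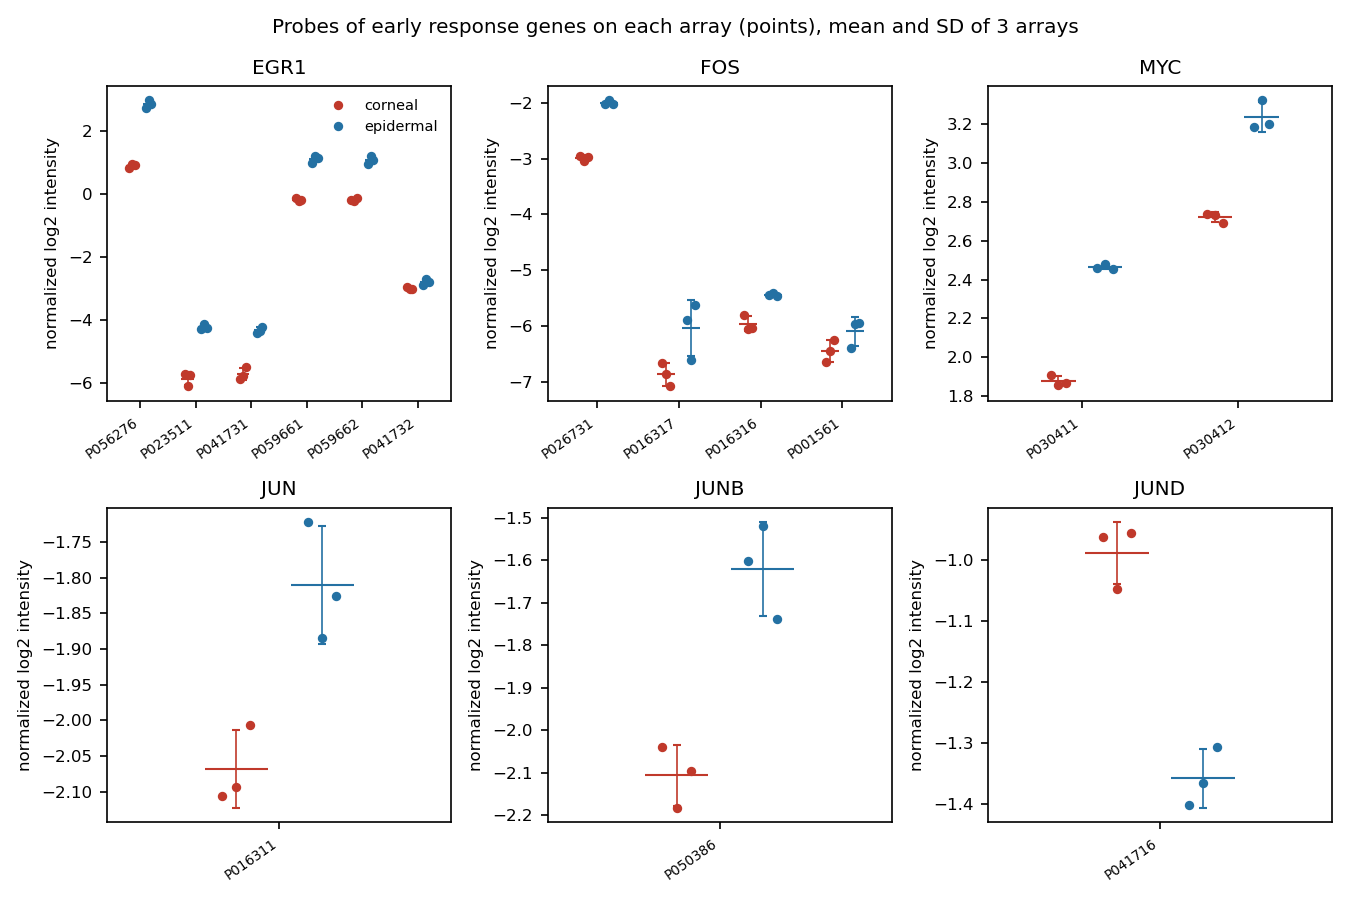
Normalized log2 intensity (vertical axis, its scale differs between panels) of every probe of the 6 genes on each array; points are arrays, horizontal lines the mean and bars the SD of 3 arrays, with corneal in red left of epidermal in blue. In 13 of 15 probes all corneal points lie below the epidermal ones, in JUND they lie above, and in the FOS probe A_70_P001561 they overlap.

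FOS, the early response partner of the JUN proteins in AP-1, was lower in corneal cells by its 1 probe of moderate signal. A_70_P026731 read -2.95, -3.05 and -2.97 in corneal, against -2.02, -1.96 and -2.02 in epidermal samples. The groups were clearly apart, with little spread among the arrays of a kind. The change was -0.99 ± 0.04 (SE; adjusted p = 1.47e-05).

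The other 3 FOS probes were close to background. A pair of them shares 59 bases, printed here because almost the same sequence was measured on separate spots; capitals mark the shared bases.
FOS A_70_P016316: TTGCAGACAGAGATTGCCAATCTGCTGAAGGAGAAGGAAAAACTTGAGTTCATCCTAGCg
FOS A_70_P016317: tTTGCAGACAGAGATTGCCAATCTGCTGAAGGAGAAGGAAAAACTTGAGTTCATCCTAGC
A_70_P016316 read -5.81, -6.05 and -6.03 in corneal and -5.45, -5.41 and -5.45 in epidermal samples, a change of -0.52 ± 0.07 (SE; adjusted p = 0.0015). A_70_P016317 read -6.65, -6.86 and -7.08 in corneal and -5.89, -6.60 and -5.63 in epidermal samples, and was well above background on 0 corneal and 3 epidermal arrays. Taken from the epidermal mean and the corneal detection floor, the bound for A_70_P016317 was 1.21-fold lower in corneal cells. This bound makes no allowance for the spread of the arrays. The adjusted p of its fitted change of -0.83 ± 0.27 (SE) was 0.0407. Both probes had the corneal arrays below the epidermal ones, although epidermal replicate 2 of A_70_P016317 came close to corneal replicate 1. The call of A_70_P016317 was lost when any array but epidermal replicate 2 was left out, with changes of -0.93, -0.83 and -0.72 without corneal replicates 1, 2 and 3, and of -0.75 and -0.62 without epidermal replicates 1 and 3.

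A_70_P001561 read -6.64, -6.44 and -6.25 in corneal and -6.39, -5.96 and -5.94 in epidermal samples, again with 0 corneal arrays above background. The groups overlapped, and the fitted change of -0.35 ± 0.16 (SE) was not called (adjusted p = 0.107). Without epidermal replicate 1 the fitted change was -0.50 (adjusted p = 0.0243). Of the 4 FOS probes, 3 were thus called lower, 2 of them on signal above background in both kinds of cell. Of the 3, A_70_P016316 and A_70_P016317 share 59 bases and so count as 1 measurement of the FOS transcript. When the normexp background correction was used with 7 spots of extreme local background left out, the changes of A_70_P016317 and A_70_P001561 turned to 0.03 and 0.15, and that of A_70_P016316 was -0.07, none of them called.

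MYC was measured at high signal by 2 probes that share 20 bases. A_70_P030411 read 1.91, 1.86 and 1.87 in corneal, against 2.46, 2.48 and 2.46 in epidermal samples. A_70_P030412 read 2.74, 2.73 and 2.69 in corneal, against 3.19, 3.32 and 3.20 in epidermal samples. In both probes the corneal arrays were lower, with no overlap and little spread. The changes were -0.59 ± 0.03 (SE; adjusted p = 2.67e-05) and -0.52 ± 0.05 (SE; adjusted p = 0.000286), that is, 1.50-fold and 1.43-fold lower in corneal cells.

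The JUN family members did not move one way. JUN, the founding member of the family, read -2.11, -2.09 and -2.01 on A_70_P016311 in corneal and -1.72, -1.88 and -1.83 in epidermal samples, a change of -0.26 ± 0.05 (SE; adjusted p = 0.00869). JUNB, also induced early by serum, read -2.04, -2.18 and -2.10 in corneal and -1.60, -1.52 and -1.74 in epidermal samples, a change of -0.49 ± 0.07 (SE; adjusted p = 0.0018). JUND, the family member known for a steadier level that depends less on acute stimulation, read -0.96, -1.05 and -0.96 in corneal and -1.40, -1.36 and -1.31 in epidermal samples, a change of 0.37 ± 0.04 (SE; adjusted p = 0.000765). For these probes, JUN and JUNB lay below, and JUND above, the epidermal arrays on every corneal array. JUND stayed higher under quantile normalization, median centring and with no scaling, and JUN A_70_P016311 and JUNB stayed lower under the same settings. With normexp correction the 3 calls were lost, with changes of 0.07 for JUND (adjusted p = 0.839), -0.47 for JUN (adjusted p = 0.574) and -0.63 for JUNB (adjusted p = 0.438). With the extreme spots left out as well they were called, at 0.34, -0.14 and -0.32.

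Another 2 probes carry the older gene name C-JUN, which the membership rule does not list, and match the symbol JUN; they are given here because they bear on the JUN value. A_70_P018671 read 1.04, 1.06 and 1.03 in corneal and 1.40, 1.32 and 1.38 in epidermal samples, a change of -0.33 ± 0.03 (SE; adjusted p = 0.000525). A_70_P016313 read 3.11, 3.01 and 3.00 in corneal and 3.05, 3.06 and 3.15 in epidermal samples, a change of -0.05 ± 0.05 (SE; adjusted p = 0.441). The last of these overlapped between the kinds, so the probes matched to JUN disagreed on whether it changed. With no scaling between arrays, A_70_P016313 was called lower (-0.21, adjusted p = 0.0423). The 2 member probes that only mention MYC were for RIOX2, described on the array as MYC-induced nuclear antigen, and for BIN1, described as a Myc box-dependent interacting protein. RIOX2 was slightly lower in corneal cells (-0.17 ± 0.04, SE; adjusted p = 0.00903), and BIN1 had a change of 0.04 ± 0.03 (SE; adjusted p = 0.308).

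Differences between probes on the same array remove the scaling of the arrays, and pairs of members were set side by side this way; the pairs were chosen after their values were seen and carry no test. A level of such a difference depends on the probes and has no meaning by itself, but its change between kinds of cell does. JUNB minus JUND was -1.12 ± 0.03 in corneal and -0.26 ± 0.15 in epidermal samples (log2, SD, n = 3 each). FOS minus JUND was -2.0 ± 0.02 in corneal and -0.64 ± 0.07 in epidermal samples. Relative to JUND, the change was therefore -0.85 for JUNB and -1.36 for FOS. That the groups were apart in these 2 pairs follows from the single probes, which already did not overlap and moved in opposite directions. EGR1 minus MYC was -1.84 ± 0.08 in corneal and -0.39 ± 0.06 in epidermal samples. EGR1 minus FOS was 3.87 ± 0.12 in corneal and 4.84 ± 0.09 in epidermal samples. By the brightest probe of each gene, EGR1 thus changed by more than MYC, with a gap of -1.44, and by more than FOS, with a gap of -0.97. This order depends on the probe, since EGR1 A_70_P041732 changed by -0.21, less than MYC and FOS by their brightest probes (-0.52 and -0.99).

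**Figure D3:**
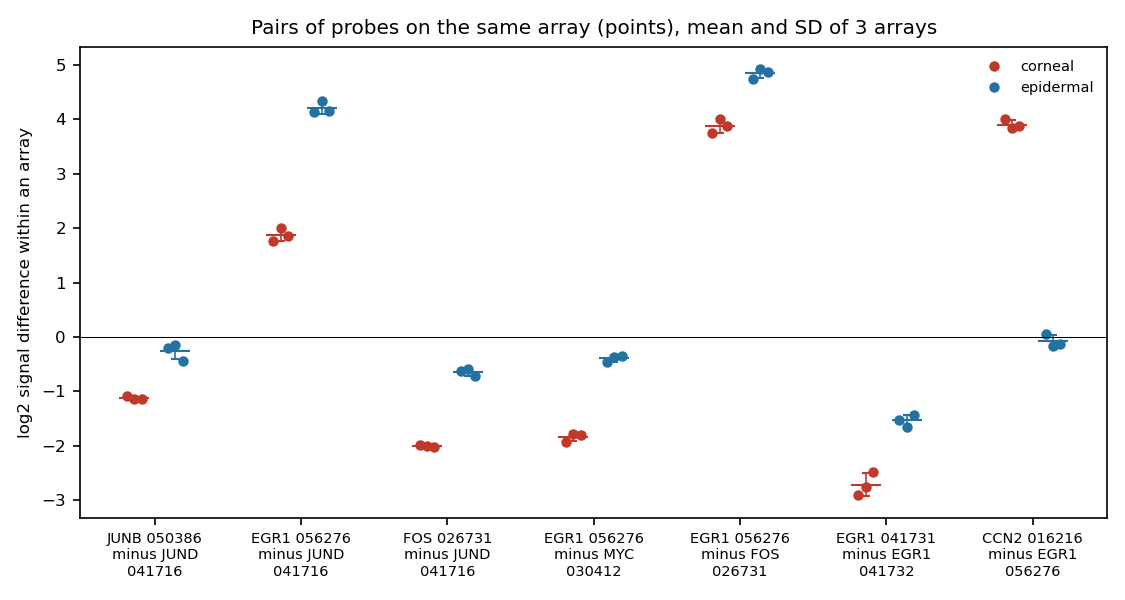
Log2 signal of 1 probe minus that of another on the same array (vertical axis) for 7 pairs; points are arrays, lines the mean and bars the SD of 3 arrays, with corneal in red left of epidermal in blue. The scaling of the arrays cancels in these values; EGR1 minus JUND averages 1.87 in corneal and 4.20 in epidermal samples, and CCN2 minus EGR1 averages 3.90 in corneal and -0.08 in epidermal samples.

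Other early response genes were called in both directions. Of 36 such genes listed, 9 had a probe and were tested, and 5 were called higher, 3 lower and 1 not, with a median change of 0.20; over all 677 genes with a symbol that were tested, 27.3% were called higher and 35.5% lower, 62.8% in all, with a median of -0.08. CCN2 and CCN1, secreted matricellular proteins that serum and cell tension induce, were higher in corneal cells by 2.02 ± 0.04 (SE; adjusted p = 7.64e-07) and 1.02 ± 0.03 (SE; adjusted p = 6.09e-06). CCN2 read 4.81, 4.78 and 4.77 in corneal, against 2.78, 2.80 and 2.72 in epidermal samples, with the groups far apart. PTGS2, the inducible cyclooxygenase, was higher by 1.54 ± 0.03 (SE; adjusted p = 1.03e-06). CEBPB, a leucine zipper transcription factor, was higher by 0.42, and MCL1, an inhibitor of cell death, had a change of 0.20 that lost its call with no scaling (0.03, adjusted p = 0.742). BTG1 and BTG2, which restrain growth, were lower, with changes of -0.64 and -0.14. NFKBIA, the inhibitor of NF-kappa-B, had a change of -0.16 (adjusted p = 0.0345), which was no longer called with median centring (-0.13) or without corneal replicate 2 (-0.12), corneal replicate 3 (-0.15), epidermal replicate 1 (-0.14) or epidermal replicate 2 (-0.15). ZFP36, which destabilises the messenger RNAs of cytokines, had a change of 0.11 (adjusted p = 0.0713), which was called without epidermal replicate 2 (0.14) and turned to -0.06 with no scaling. Within an array, CCN2 minus EGR1 differed by 3.98 between the means of the cell types, as genes that move in opposite directions must differ.

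Few genes of the signal path that induces the early response could be named among the probes. Of 22 genes of growth signal kinases, their ligands and activators, 4 were tested, 1 was called higher and 3 were not called, with a median change of 0.06. TGFA, a ligand of the EGF receptor, was higher in corneal cells by 0.78 ± 0.07 (SE; adjusted p = 0.000304), a direction that turned with normexp correction (-0.51, adjusted p = 0.653). The changes of NRAS (-0.06) and EGFR (0.18) missed the threshold, and so did that of AREG, another ligand of the receptor, which was at background on all corneal arrays (-0.36, adjusted p = 0.0614). AREG was called without epidermal replicate 1 (-0.48) or corneal replicate 2 (-0.45). Of 23 partners and regulators of the member proteins, 3 were tested, and 1 was called higher and 2 lower. ATF4, the factor of the stress response to amino acid shortage, was higher by 0.30 ± 0.03 (SE; adjusted p = 0.000438), a call that was lost with no scaling (0.14, adjusted p = 0.104). ATF1, a relative of CREB, was lower with a change of -0.61 ± 0.03 (SE; adjusted p = 4.85e-05). ATF6, a sensor of stress in the endoplasmic reticulum, had a change of -0.20 (adjusted p = 0.0273), which lost its call without corneal replicate 1 (-0.21) or corneal replicate 2 (-0.16).

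Genes known as targets of the member proteins were split in direction. Of 19 textbook MYC targets, 7 had a probe and 6 were tested, and 3 were called higher, 2 lower and 1 not, with a median change of 0.14. Among all tested genes with a symbol, 27.3% were called higher and 35.5% lower. SHMT1, an enzyme of one-carbon metabolism, was higher in corneal cells by 2.70 ± 0.16 (SE; adjusted p = 5.61e-05), although by 0.23 with normexp correction (adjusted p = 0.856) and by 1.17 with the extreme spots left out as well. LDHA, the lactate dehydrogenase subunit, was higher by 0.48 ± 0.03 (SE; adjusted p = 0.000119). CDK4, a kinase of the cell cycle, was higher by 0.26 (adjusted p = 0.00183), which lost its call with no scaling (0.09, adjusted p = 0.269). CDKN1A, a cell cycle inhibitor that MYC is known to repress, was lower together with MYC itself, with a change of -0.51 ± 0.04 (SE; adjusted p = 0.000106). PCNA, the sliding clamp of DNA replication, had a change of -0.15 (adjusted p = 0.0304), which lost its call without corneal replicate 2 (-0.12), corneal replicate 3 (-0.14), epidermal replicate 2 (-0.15) or epidermal replicate 3 (-0.14). CCND2, a cyclin, had a change of 0.02 (adjusted p = 0.509), which turned to -0.14 with no scaling.

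Of 13 textbook AP-1 targets, 10 had a probe and 9 were tested, and 3 were called higher, 4 lower and 2 not, with a median change of -0.05. The collagenases MMP1 and MMP13 were higher in corneal cells by 1.85 ± 0.04 (SE; adjusted p = 1.12e-06) and 2.00 ± 0.22 (SE; adjusted p = 0.000631), although MMP13 turned to -0.47 with normexp correction (adjusted p = 0.719). TIMP1, an inhibitor of metalloproteinases, was higher by 0.67 ± 0.03 (SE; adjusted p = 2.10e-05). The cytokine IL6 was lower (-0.76 ± 0.08, SE; adjusted p = 0.000684), and so were the plasminogen activator PLAU (-0.60), its receptor PLAUR (-0.53) and the chemokine CXCL8 (-0.30). VIM and SPP1, osteopontin, had changes of -0.05 (adjusted p = 0.511) and 0.45 (adjusted p = 0.2); VIM was called lower without epidermal replicate 1 (-0.12). The direction of FOS and JUNB, lower in corneal cells, was that of 4 called targets and opposite to that of 3 others. Over all 677 tested genes with a symbol, 35.5% were called lower and 27.3% higher, so this split by itself says little about FOS and JUNB.

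**Figure D4:**
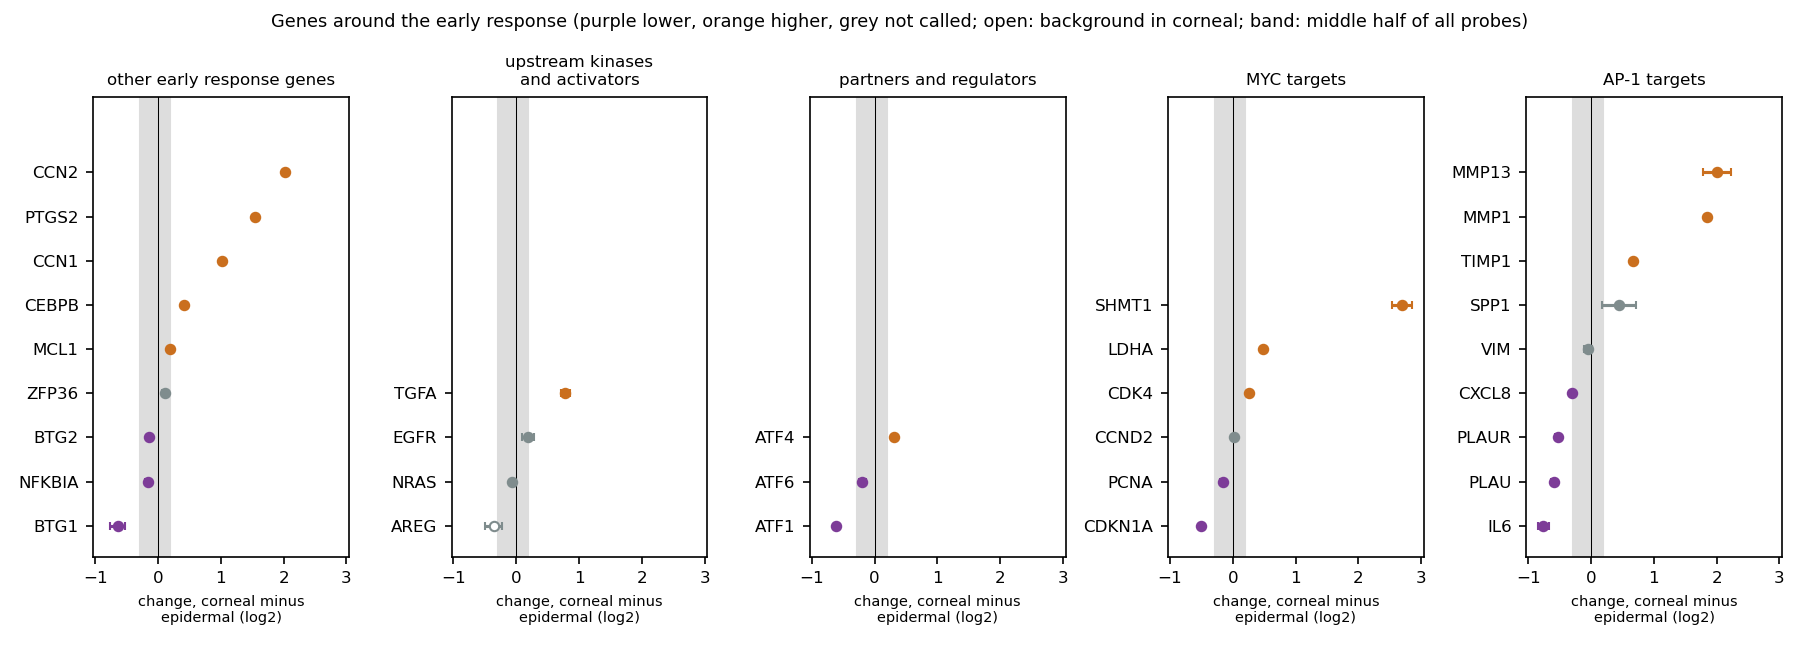
Change of each tested gene reported of 5 lists around the early response (corneal minus epidermal, log2 scale, horizontal axis), with its standard error; purple points were called lower, orange ones higher and grey ones not called, open points were at background on all corneal arrays, and the grey band runs between the quartiles of all tested probes. CCN2, PTGS2, CCN1, SHMT1, MMP13 and MMP1 lie at 1.02 or above, while IL6 lies at -0.76 and BTG1 at -0.64.

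The genes whose pattern over the 6 arrays was most like that of each brightest member probe were found by the Euclidean distance of the normalized log2 values after each probe was centred on its mean, among probes with a symbol of other genes. For EGR1 (A_70_P056276, 1008 probes) these were the IGFBP5 probe A_70_P041812, which measures a binding protein of insulin-like growth factors, at a distance of 0.12, JAG1, a Notch ligand, at 0.232, and a second IGFBP5 probe, A_70_P041811, at 0.246. The changes of the 3 probes were -1.92, -1.96 and -1.86, close to the -1.96 of EGR1. For FOS (A_70_P026731, 1010 probes) they included GSTA1-1, a glutathione transferase, at 0.117 and BGLAP, osteocalcin, at 0.127. For MYC (A_70_P030412, 1012 probes) they were HGF, the hepatocyte growth factor, at 0.0761, DDIT3, a stress-induced transcription factor, at 0.0822 and CDKN1A at 0.0861. With 6 arrays in 2 groups, such likeness rests mostly on a change of the same size between the kinds of cell.

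The number of calls depended on the background correction and, with normexp correction, on 7 spots of extreme local background. With normexp correction in place of the scanner software's own, 3 of the 15 probes, all of EGR1, were called lower and 0 higher, with 196 higher and 230 lower among all tested probes. With these 7 spots, all on epidermal replicate 1, left out before normexp correction, 10 of the 15 probes were called lower and 1 higher. Over all tested probes, about as many were then called as with the scanner software's own correction. Of those calls, 53.8% were higher in corneal cells, against 44.1% with the scanner software's own correction. Among the called genes of the 5 lists, only CCN2, PTGS2 and IL6 were called with normexp correction. With the extreme spots left out as well, the changes of MMP13 (0.55), TGFA (0.38), PLAU (-0.29), BTG1 (-0.09) and ATF6 (-0.07) shrank by over 1.5 times, as that of SHMT1 did, and BTG1 and ATF6 were not called. The EGR1 probes A_70_P056276, A_70_P059661 and A_70_P059662 were called lower under all 17 alternatives, with changes between -2.13 and -1.10.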

How the data were processed

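Groups and replicate numbers came from the labels. The deposited scanner values are linear intensities, extracted per the submitters' processing notes with Agilent Feature Extraction 10.7; per the file headers, the authors' processed signal is background-subtracted and detrended. A second deposited table holds log2 values of the same arrays, for which the sources used here give no method. Its columns share a median of 7.23 and differ by at most 0.020 at equal rank, as after quantile normalization, with genes not centred; it served as an alternative.

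Control spots and outlier spots were left out. Each array's 75th percentile of log2 processed signal was subtracted, and spots of 1 probe were averaged. Of 15008 probes, the 11742 detected well above background on 3 or more of 6 arrays entered a limma fit (lmFit and eBayes, limma 3.58.1, R 4.3.3) without a block, adjusted by Benjamini-Hochberg. A probe at background on all arrays of a kind has only a bound, taken from the brighter mean and, per array, the higher of the detection floor and the probe's own signal.

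Symbols came from the arrays' annotation and RefSeq's ARS-UI_Ramb_v3.0 gene table, used for names only. A listed gene was represented by its brightest kept probe; a few genes are not reported here, and the counts and medians of the lists leave them out. The members and lists were chosen with earlier results of these data known. Named were all member probes, up to 4 called genes of each list with the largest rise and fall, and the 3 probes most like each of EGR1, FOS and MYC; uncalled list genes and marker genes were added after their values were seen. Alternatives changed the scaling, background correction, filter, outlier spots, values, pairing, prior and arrays included. The fits were tested on simulated data.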

Additional observations from a re-analysis of the deposited data

How the results depend on the processing

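With normexp background correction, the calls over all tested probes numbered 196 higher and 230 lower, against 3100 and 3923, and those of the 15 member probes 0 higher and 3 lower, against 1 and 13. EGR1 then changed by -1.18 on A_70_P023511, -1.09 on A_70_P041731 and -0.60 on A_70_P041732, FOS by -1.05 on A_70_P026731, -0.94 on A_70_P016317 and -1.0 on A_70_P016316, and MYC by -0.41 on A_70_P030411 and -0.33 on A_70_P030412, none of them called. With the 7 spots of extreme local background left out before normexp correction, EGR1 A_70_P041732 changed by -0.0902 and FOS A_70_P016316 by -0.0713, no longer called, and FOS A_70_P016317 (0.025) and FOS A_70_P001561 (0.15) reversed without a call. Over all tested probes, about as many were called with these spots left out as with the scanner software's own correction. FOS A_70_P016317 also lost its call with quantile normalization (-0.53), with the authors' deposited values (-0.51) and with no filter on dim probes (-0.83, adjusted p = 0.0604). FOS A_70_P001561 was called lower with no scaling (-0.52), which also left 1533 probes called higher and moved the median change of all probes by -0.17; normexp correction moved it by -0.25. One probe per gene left 4 member genes called lower, EGR1, FOS, MYC and JUNB, since the brightest probe matched to JUN, A_70_P016313, was not called. Requiring a log2 change of 1 or more left 5 member probes lower and 0 higher, as the stricter rule must lower both counts. The cause of the other changes was not tested.

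Replicates with the same number did not deviate together: the correlations of their deviations from the group means were 0.018, -0.029 and 0.038. No pairing by number was thus seen, although with 3 arrays a kind such values cannot show that there was none. With the replicate number as a replicate block, 2754 probes were called higher and 3519 lower, EGR1 A_70_P041732 (-0.21, adjusted p = 0.0559) and FOS A_70_P016317 (-0.83, adjusted p = 0.0661) were not called, and FOS A_70_P001561 was (-0.35, adjusted p = 0.0169).

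With each of the 6 arrays left out in turn, 11 to 13 member probes were called lower, and 2742 to 3014 of all probes were higher and 3443 to 3749 lower. For the 3 probes with a call that changed in some of these fits, the changes over all 6 ran from -0.26 to -0.17 for EGR1 A_70_P041732, from -1.11 to -0.62 for FOS A_70_P016317 and from -0.50 to -0.25 for FOS A_70_P001561.

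Among the other 34 genes, 507 of 574 alternative values kept direction and call, 39 lost the call, 13 gained one and 15 reversed. Together with 1 value each of BIN1 and JUN A_70_P016313, the reversed values were, with no scaling, -0.12 for BIN1, -0.0568 for ZFP36, -0.14 for CCND2 and -0.10 for DCN. With normexp correction they were 0.17 for JUN (A_70_P016313), 0.04 for NFKBIA, -0.55 for EGFR, -0.51 for TGFA, -0.47 for MMP13, 0.20 for VIM, -0.75 for SPP1 and -0.26 for PAX6. With the extreme spots left out as well they were 0.10 for AREG and 0.10 for KRT15. KRT15 also reversed with quantile normalization (0.15) and the authors' deposited values (0.15), and DCN without epidermal replicate 1 (-0.18). Near background, intensities give bounds only, which limits 2 FOS probes and AREG.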
